A study of Mus musculus with 3 samples.

Results

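The PRAME-like gene cluster of mouse chromosome 5 was taken as the 2300 adjoining windows of 1 kb from 94 to 96.3 Mb of the mm9 build, together with the 358 windows of the 357350 bases of the contig chr5_random, a piece of chromosome 5 sequence that mm9 does not place on the chromosome. These 2658 windows were chosen by position, out of 2725763 windows of the nuclear chromosomes. RNA was sequenced from 3 litters of 2-cell embryos, each a pool of embryos whose number is not given in the sources used here. Litters were collected at embryonic day 1.5 (E1.5) and lysed directly. The mothers were of mixed strain background and carried LSD1 FL/FL, an allele of the histone demethylase gene flanked by recombination sites, and were ZP3::Cre negative, so they lacked the oocyte-driven recombinase. One label names wild type CB6 fathers and another names C57/Bl6J fathers. All 3 litters form 1 group, so no condition was compared and every statement below is about levels within this group and their spread between litters.

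PRAME-like genes encode leucine-rich repeat proteins of a family that has expanded in rodents and is known mainly from the germ line and the early embryo. Several of the family's genes on chromosome 5, including D5Ertd577e and AA792892, are known markers of the 2-cell stage, when transcription from the embryo's own genome begins. In the RefSeq table of assembly GRCm38.p6, 20 PRAME-like protein-coding genes lie in a row from Pramel33 to E330014E10Rik, between the cyclin gene Ccng2 and the chemokine gene Cxcl13. That row holds 30 protein-coding genes in all. D5Ertd577e is listed there as Pramel48, C87414 as Pramel34 and Gm3259 as Pramel47. No mm9 annotation was used, so these genes name the neighbourhood and none was given a level. For the same reason the stage of the embryos was not checked against marker genes.

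Many members of the family are close copies of one another. Of the GENCODE M21 (GRCm38) gene models, 42 models covered the 20 genes, and 19 genes had an exon of 591 bases, which is coding in D5Ertd577e. Among the 171 pairs of these exons, 4 pairs were identical, 19 pairs differed at no more than 6 bases, and identity ran from 63.5% to 100% with a median of 76.5%. The exons of D5Ertd577e and E330014E10Rik differed at 1 base, those of D5Ertd577e and Gm7792 at 18 bases, and those of C87414 and Gm3259 at 9 bases. Over whole transcripts, between 10.5% (AA792892) and 100% of a gene's 72-base stretches occurred in at least 1 other gene of the 20, with a median of 72.4%. D5Ertd577e itself had 66.3% of such stretches, and 1 stretch could be shared by up to 7 genes.

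A 72-base stretch of the 591-base exon, positions 317 to 388 of that exon in D5Ertd577e, shows what 1 alignment can and cannot tell apart. It is shown because it is as long as 1 alignment and is carried unchanged by 6 genes, D5Ertd577e, E330014E10Rik, Gm16427, Gm3106, Gm3139 and Gm7792. The counterparts below come from the same transcripts of GENCODE M21, read 5′ to 3′ on the gene's strand, and capitals mark each base that differs from D5Ertd577e.
D5Ertd577e: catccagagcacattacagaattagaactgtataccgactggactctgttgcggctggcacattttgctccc
C87414: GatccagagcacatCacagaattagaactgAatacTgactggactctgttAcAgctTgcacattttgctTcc
Gm3259: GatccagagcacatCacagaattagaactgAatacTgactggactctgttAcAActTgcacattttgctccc
Gm6502: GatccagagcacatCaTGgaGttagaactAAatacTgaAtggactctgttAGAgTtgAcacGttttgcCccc
A430089I19Rik: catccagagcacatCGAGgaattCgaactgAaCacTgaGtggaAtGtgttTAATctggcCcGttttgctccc
C87414 and Gm3259 each differed from D5Ertd577e at 8 of the 72 bases, Gm6502 at 16 and A430089I19Rik at 17. A read from this stretch therefore fits 6 genes equally well, while it separates those genes from C87414 and Gm3259.

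The deposited files gave, for every base, how many alignments covered it. All alignments had 72 bases, which let each alignment's start be recovered, and a litter had 34014013, 32431630 and 40474940 alignments on the nuclear chromosomes for litters 1, 2 and 3. Levels are given as RPKM, the alignments starting in a region per kb and per 1000000 nuclear alignments of the litter. In such pooled samples, more transcribing cells and more RNA per cell cannot be told apart. The litters are labelled as separate litters, so the SD given is the spread between pools of embryos.

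With alignments counted at every place, the cluster was among the densest stretches of the genome in these embryos. It held 214790, 275272 and 317169 alignments in litters 1, 2 and 3, which is 2.75, 3.69 and 3.41 RPKM and a mean of 3.28 ± 0.485 (SD, n = 3). The 3 litters lay close together, with litter 1 the lowest. When the nuclear chromosomes were divided into tiles of the same 2.3 Mb, 6 of the 1141 other tiles had a higher mean level and the median of the others was 0.230 RPKM. The 2.3 Mb before the cluster had 1.03 ± 0.0514 RPKM and the 2.3 Mb after it had 0.340 ± 0.0162 (SD, n = 3). The density of the cluster was 4.24, 5.18 and 4.94 times that of both flanks together in litters 1, 2 and 3, on average 4.79 ± 0.487 times (SD, n = 3; exact two-sided sign-flip permutation test, p = 0.25, the smallest p that 3 litters allow). All 3 litters showed the higher density in the cluster, and the ratio was 3.18 against the flank before alone and 9.63 against the flank after alone. Runs described below repeat one another's counts, so these levels may count the same reads at several places. Counting each group of such runs once left 29.3% ± 5.28 of the alignments of cluster and contig (SD, n = 3). The rank among tiles and the ratio to the flanks were not recomputed that way.

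Per kb, the contig had more alignments than the cluster. It held 83474, 105312 and 137568 alignments, or 6.87, 9.09 and 9.51 RPKM, with a mean of 8.49 ± 1.42 (SD, n = 3). In each litter the contig exceeded the cluster, by 2.50, 2.46 and 2.79 times and on average 2.59 ± 0.180 times (SD, n = 3; exact two-sided sign-flip permutation test, p = 0.25, again the smallest possible). The ranges over litters did not overlap. Of the contig's alignments, 93.8% lay in runs, group A below, whose compared counts mostly equalled those of runs in the cluster, so both levels and their ratio may count the same reads at several places. Alignments beyond the first at each start position of a litter made up 73.3% ± 5.57 of the cluster's alignments and 77.1% ± 5.94 of the contig's (SD, n = 3).

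Alignments in both regions gathered in short runs of windows. In the cluster, 184 of the 2300 windows (8%) reached 1 RPKM in all 3 litters, against 1.19% of all nuclear windows. They formed 57 runs of adjoining windows that held 89.4% of the cluster's alignments. On the contig, 54 of 358 windows (15.1%) reached that level, in 6 runs that held 94.0% of the alignments. By contrast, 1053 cluster windows (45.8%) and 135 contig windows (37.7%) held no alignment in any litter. The first and the last window of the cluster were empty in every litter.

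**Figure D1:**
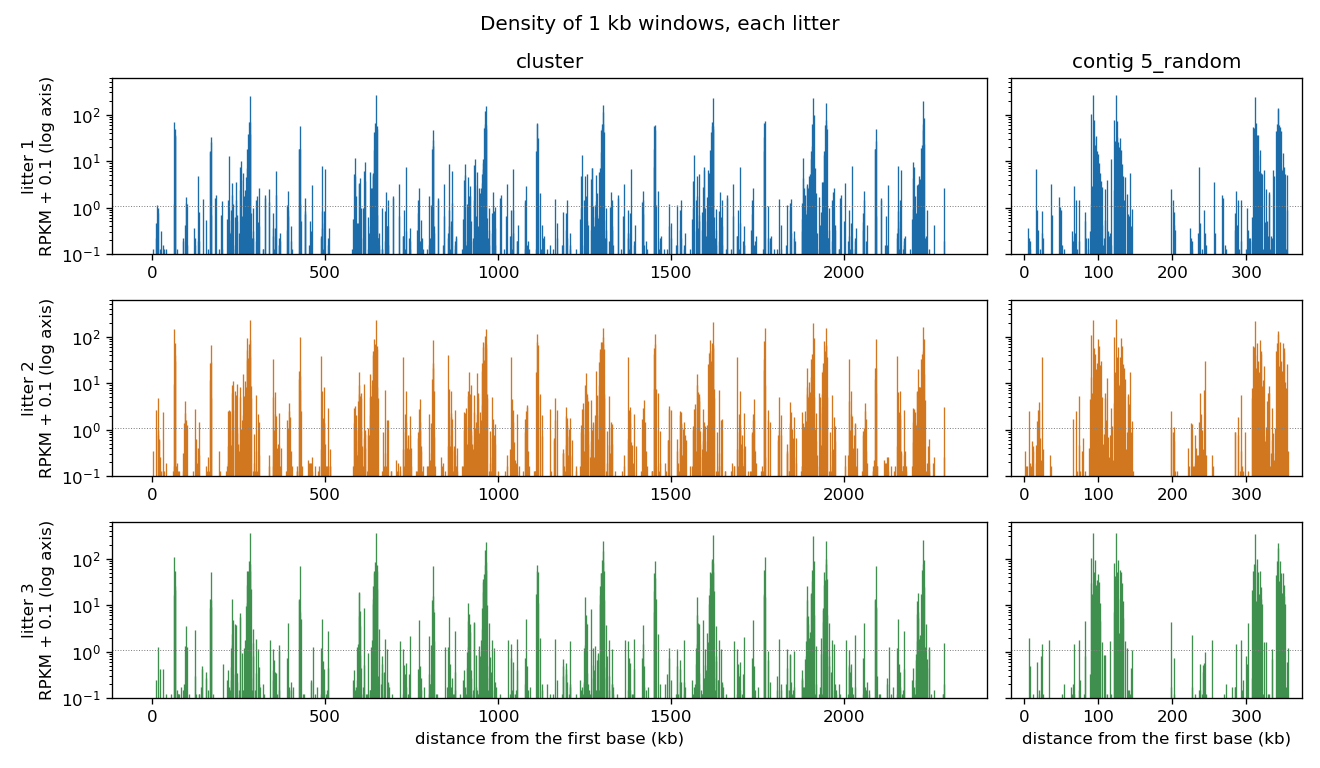
Density of each 1 kb window (RPKM + 0.1, log axis) by distance from the first base, in kb, for the cluster (left) and the contig (right), with 1 row per litter. The dotted line is the level of 1 RPKM. In litters 1, 2 and 3, 323, 445 and 295 cluster windows and 84, 102 and 75 contig windows reach it, of which 184 and 54 do so in all 3 litters.

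Covered blocks, unbroken stretches of bases with at least 1 alignment in every litter, were short. The cluster had 677 blocks of 1 to 1492 bases with a median of 95 bases, and together they covered 136171 bases, or 5.92% of it. The contig had 131 blocks of 6 to 1407 bases with a median of 209 bases, covering 43742 bases, or 12.2%. Blocks of 500 bases or longer numbered 68 in the cluster and 28 on the contig. Single litters covered more, namely 11.5%, 17.1% and 11.03% of the cluster and 20.6%, 26.6% and 18.5% of the contig in litters 1, 2 and 3. Litter 2 had the broadest coverage in both.

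The runs repeated one another, start by start. A start position was compared where it had at least 10 alignments in every litter, and 2 positions were called equal when all 3 litter counts were the same number. Of 1300 such starts on the contig, 1296 (99.7%, Wilson 95% interval 99.2 to 99.9) had the same 3 counts as a start in the cluster. The interval covers counting error only, since amplified reads are not independent molecules. It also treats every start as a separate observation, although 96% of the contig's starts had counts that stood at exactly 4 contig places. The interval is therefore too narrow, and so is the one for the cluster below, where most starts recur. The other 1141 tiles held the counts of a median of 0.462% of the contig's starts. The highest of them, with 82.5%, was the tile just before the cluster, chr5:91700001-94000000, and the next reached 11.4%. Within the cluster, 2600 of 2709 starts (96.0%, Wilson 95% interval 95.2 to 96.7) had counts that recurred at another cluster position. Among the starts of the other tiles, 12.1% recurred in their own tile. That share depended on the tile, with a median of 3.13% over the 505 tiles with at least 100 starts and a highest value of 100%.

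Counted by places, the cluster and the contig together held 741 different sets of 3 litter counts. Of these, 324 occurred in both, 415 only in the cluster and 2 only on the contig, and 107 occurred at a single place. The commonest pattern was 3 places in the cluster and none on the contig, for 243 sets. The next was 5 places in the cluster and 4 on the contig, for 196 sets. Of the contig's starts, 96% had counts that stood at exactly 4 contig places. One set recurred at 21 places.

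Runs sharing at least 50% of these starts were put together, which gave 4 groups, A to D, of 19 runs. A further run, E, is described beside them. Along the cluster the order of the runs was D, B, A, B, A, B, A, D, A, D, A, E, C, C, B, C.

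Group A was the largest and the only one on the contig. It had 9 runs, each 13 kb long, of which 5 lay in the cluster and 4 on the contig. The cluster runs were chr5:94272001-94285000, chr5:94638001-94651000, chr5:94955001-94968000, chr5:95294001-95307000 and chr5:95611001-95624000. The contig runs were chr5_random:90001-103000, chr5_random:121001-134000, chr5_random:309001-322000 and chr5_random:340001-353000. The cluster runs stood 366, 317, 339 and 317 kb apart from start to start, and the contig runs 31, 188 and 31 kb apart. The mean level over the 9 runs was 45.0, 54.8 and 63.3 RPKM in litters 1, 2 and 3, or 54.4 ± 9.15 (SD, n = 3). Between runs the level hardly moved. It ran from 44.6 to 45.5 RPKM in litter 1, from 54.1 to 55.3 in litter 2 and from 62.1 to 64.7 in litter 3, so litter 1 was the lowest and litter 3 the highest in all 9 runs. Any 2 of the runs had 81.6% to 100% of their 324 to 329 compared starts in common. Group A held 47.1% of the cluster's alignments and 93.8% of the contig's.

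Group C reached levels near those of A and had no run on the contig. Its 3 runs lay at chr5:95907001-95915000, chr5:95939001-95952000 and chr5:96226001-96234000. They averaged 50.5, 47.5 and 61.8 RPKM in litters 1, 2 and 3, or 53.3 ± 7.54 (SD, n = 3). The litter 3 value was the highest in all 3 runs. The run at chr5:95939001-95952000 had a lower level than the other 2, with 37.1, 42.7 and 47.3 RPKM. That level is an average over 13 kb, against 8 kb in each of the other 2. Its deepest block had a mean coverage of 1000, 817 and 1602 in litters 1, 2 and 3. The deepest block of the run chr5:96226001-96234000 had the same values. Runs of A and C had 18.2% to 22.1% of compared starts in common. Group C held 19.95% of the cluster's alignments.

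Groups B and D and run E showed another order of litters, with litter 2 the highest throughout. The runs of group D lay at chr5:94063001-94068000, chr5:95111001-95116000 and chr5:95451001-95457000. They averaged 35.9, 55.7 and 40.3 RPKM in litters 1, 2 and 3, or 44.0 ± 10.4 (SD, n = 3), with litter 1 the lowest in each. Run E, chr5:95769001-95773000, had 46.5, 71.1 and 49.6 RPKM, or 55.7 ± 13.4 (SD, n = 3), and had 23.5% to 47.1% of starts in common with the runs of D and 28.6% to 42.9% with those of B. The 4 runs of group B began at 94.167, 94.425, 94.81 and 96.091 Mb. They averaged 25.4, 33.6 and 23.7 RPKM, or 27.6 ± 5.31 (SD, n = 3), and compared on few starts, 14 or 15 a run. The order of litters was not tested. Runs of 1 group, in A and C as well, have many of their counts in common, so they are not independent observations of that order. With scaling by the median of ratios over 10 kb windows, which divides litters 1, 2 and 3 by 0.972, 1.17 and 0.880, litter 3 stayed the highest in all 9 runs of A and all 3 of C, and litter 2 in all runs of B, D and E. The lowest litter was then litter 1 in 8 runs of A and litter 2 in 1 run, and litter 1 in place of litter 3 in all 4 runs of B.

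**Figure D2:**
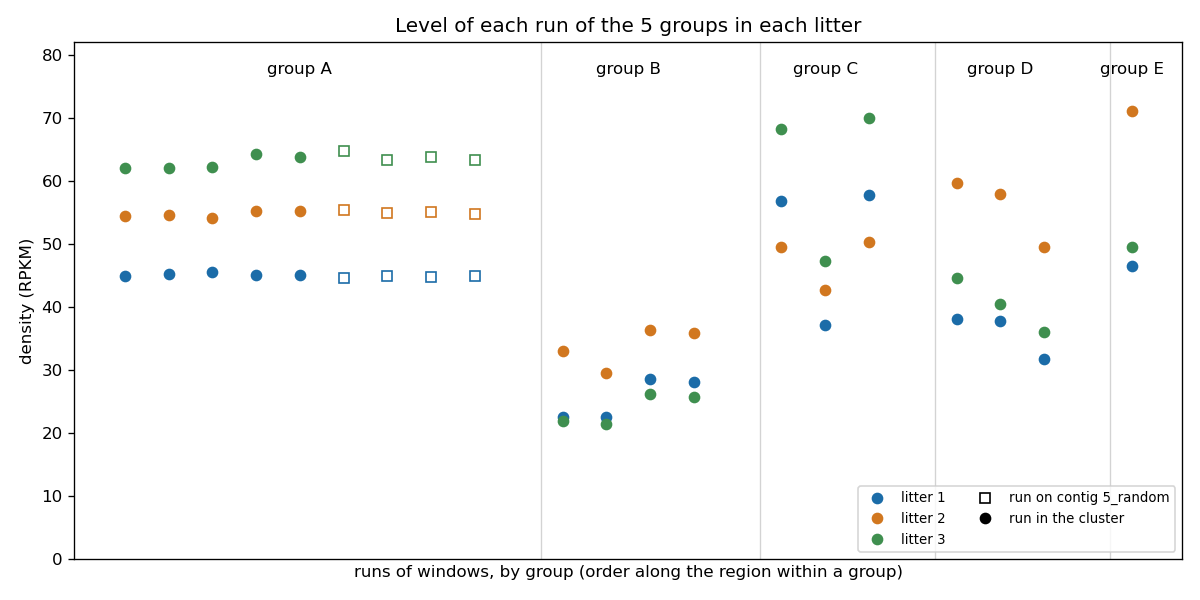
Level of each run (RPKM) in each litter, by group and, within a group, by order along the region. Filled circles are runs in the cluster and open squares are runs on the contig. The 9 runs of group A lie at nearly the same 3 levels, with litter 3 on top, while litter 2 is on top in groups B, D and E.

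The 41 other runs of the cluster were short and low. They were 1 to 3 kb long, with mean levels of 1.16 to 13.2 RPKM and a median of 4.27 RPKM, and held 4.12% of the cluster's alignments. Of them, 39 had no start with 10 alignments in every litter. The 2 highest, at 95.904 and 96.223 Mb, had nearly equal levels in each litter, with 10.7, 19.1 and 9.75 RPKM against 10.7, 19.2 and 9.71. The 2 contig runs besides group A, at chr5_random:199001-200000 and chr5_random:327001-328000, had means of 2.56 and 1.67 RPKM.

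The highest windows of the cluster lay in groups A and C, followed by E and D. The window at chr5:94648001-94649000 had 258, 232 and 360 RPKM in litters 1, 2 and 3, or 283 ± 67.8 (SD, n = 3). On the contig the highest window, chr5_random:124001-125000, had 260, 234 and 363 RPKM, or 286 ± 67.8. The highest window of group C had 245 ± 55.2 RPKM and that of run E had 111 ± 39.5 RPKM (SD, n = 3). In A and C litter 2 was the lowest at these windows, and in E litter 1.

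The counts of the contig's runs matched those of the cluster's in the reverse direction. Equal starts were joined where at least 20 of them kept a constant distance, in either direction. This gave 42 stretches between cluster and contig, all 42 reversed and none in the same direction. Within the cluster 33 stretches ran in the same direction and 0 reversed, and within the contig 10 and 0. Runs with fewer than 20 compared starts, such as those of group B, cannot give a stretch. The group D run at 94.063 Mb, whose blocks stood in the opposite order, had 20 and 21 equal starts with the other D runs, near the minimum. The 0 therefore does not show that all copies in the cluster run in 1 direction. These stretches were found by their equal starts, so the shares that follow are a description. In the 30 stretches of group A runs, 145 to 568 bases long, 93.8% to 100% of all start positions had equal counts in a litter, and the cluster's total was 98.3% to 100% of the contig's. In the 12 stretches of group C runs, each 522 bases long, 33.7% to 53.2% of start positions were equal, and the cluster's total was 89.0% to 94.2% of the contig's. Many stretches tied for the longest, among them chr5:94648003-94648570 and chr5_random:124211-124778, where all 497 start positions had the same count in each of the 3 litters. Over the whole length of the group A runs, with the distance refitted every 200 bases to give the most equal starts, 82.9% to 96.9% of start positions were equal in the 20 pairs of a contig run and a cluster run, with a median of 87.4%.

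**Figure D3:**
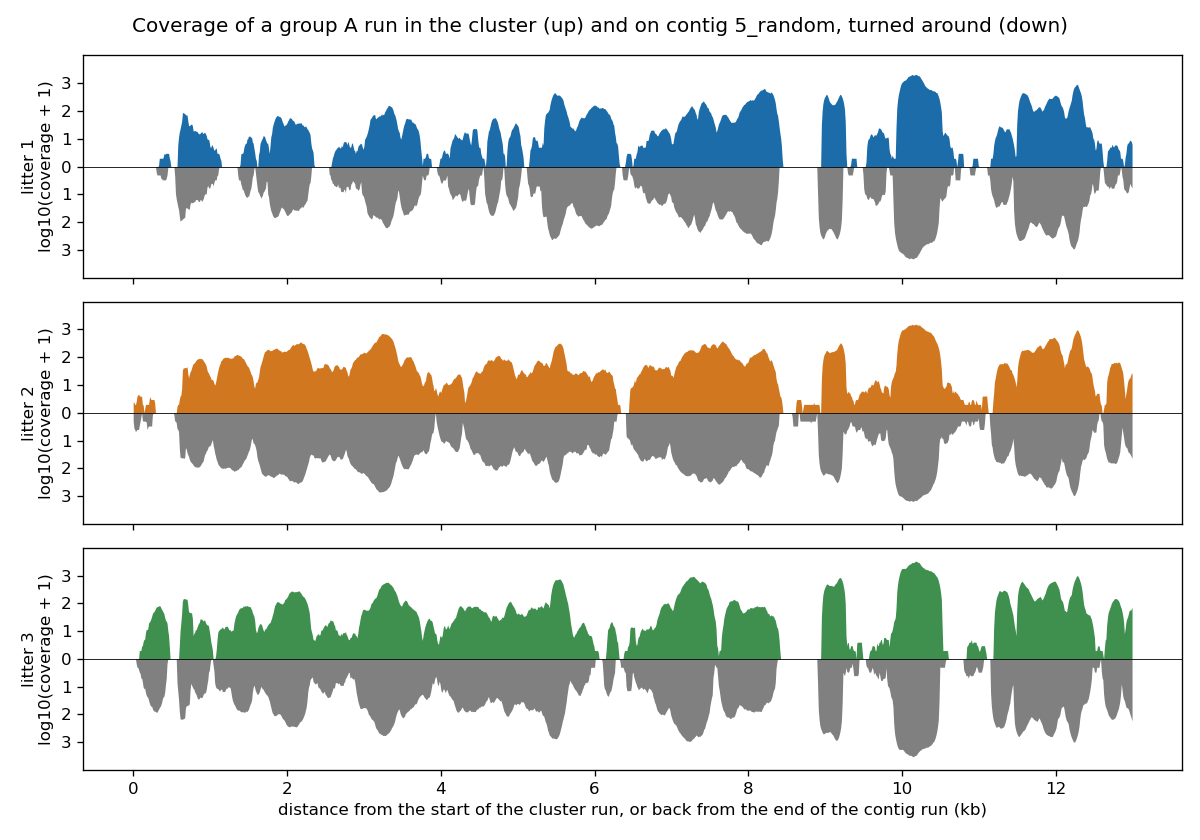
Coverage, as log10(coverage + 1), along the 13 kb run chr5:95611001-95624000 (upward, coloured) and along the contig run chr5_random:309001-322000 turned around (downward, grey), in bins of 10 bases, with 1 panel per litter. The outline below mirrors the one above in each litter, while the outlines of the 3 litters differ from one another.

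The matched stretches were short but held much of the signal. They covered 5441 bases of the cluster and held 33.2%, 22.2% and 36.1% of its alignments in litters 1, 2 and 3, a mean of 30.5% ± 7.35 (SD, n = 3). Without litter 1, 2 or 3 the share was 40.0%, 47.6% or 30.7%. Fewer litters then have to pass the minimum of 10 and to have equal counts, and the reason for the change was not tested. Counting every group of runs once left 29.3% ± 5.28 of the alignments of cluster and contig. Per 1000000 nuclear alignments the sum fell from 10580 ± 1588 to 3117 ± 880, and the ratio of both sums was 3.49 ± 0.599 (SD, n = 3).

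A further run with the counts of group A stood just outside the cluster, at chr5:93910001-93923000. It was 13 kb long, had 45.1, 54.7 and 62.0 RPKM in litters 1, 2 and 3, and had 80.9% to 96.9% of its compared starts in common with group A. It held 29.6% ± 3.71 of the alignments of the flank before the cluster (SD, n = 3). Without it that flank had 0.726 ± 0.0342 RPKM, and the cluster had 6.15 ± 0.770 times the density of the flanks (SD, n = 3), a setting chosen after seeing the data.

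Within a run, coverage fell into blocks and gaps, whose lengths were set beside those of exons and introns of the family. For this layout, blocks covered at least 10 deep in every litter were joined over gaps of up to 60 bases. Run E had blocks of 292, 594 and 1465 bases, separated by gaps of 488 and 816 bases. A GENCODE model of C87414 has exons of 294 and 591 bases with introns of 489 and 816 bases, and a model of Gm3259 has the same exon lengths with introns of 491 and 811 bases. The next exon of these models is 1751 bases in C87414 and 1547 in Gm3259, or 1517 in another Gm3259 model, each longer than the third block. Both genes also have a model that ends in an exon of 1470 bases. There the exon before it has 618 bases and the intron between them 789 bases in C87414 and 784 in Gm3259. The mean coverage of the 3 blocks was 117, 276 and 176 in litter 1, 130, 303 and 287 in litter 2, and 156, 288 and 246 in litter 3. All 3 runs of group D had the same layout within 12 bases for a block and 10 bases for a gap, 2 in the order of run E and the run at 94.063 Mb in the opposite order. This is a likeness of lengths between 2 builds, not a placement of either gene.

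In group A and in 2 runs of group C the blocks before and at the highest peak had lengths like those of D5Ertd577e and its near copies. The run chr5:95907001-95915000 of group C had blocks of 310 and 596 bases with a gap of 653 bases, and D5Ertd577e has exons of 314 and 591 bases with an intron of 653 bases. Gm7792 has the same exon lengths with an intron of 658 bases. The run chr5:96226001-96234000 had the same block lengths with a gap of 664 bases. Within 10 bases for a gap, this was alike to E330014E10Rik (intron of 664 bases), Gm16427, Gm3106, Gm3139 and Gm7792. D5Ertd577e, with its intron of 653 bases, fell just outside that limit. E330014E10Rik fell just outside it for the run chr5:95907001-95915000, so the limit does not tell these genes apart. In the first of these runs the gap after the 596-base block was 713 bases, whereas the next intron of D5Ertd577e is 960 bases and that of Gm7792 is 982. The run chr5:95611001-95624000 of group A had blocks of 318 and 601 bases with a gap of 652 bases. These were blocks 7 and 8 of its 9 blocks, and no other pair of its blocks was found alike to a model. Last exons were not part of that comparison. The run's last block had 1271 bases, against last exons of 1461 or 1484 bases in D5Ertd577e. Its 601-base block was the deepest, with a mean coverage of 1052, 904 and 1755 in litters 1, 2 and 3. All 4 contig runs showed this layout in the opposite order. After the 601-base block of the run chr5:95611001-95624000 the gap was 686 bases, again shorter than the next introns of D5Ertd577e and Gm7792. No run of group A or C had a next gap like the next intron of a model that its blocks resembled. No model of the 20 genes was alike for the runs of group B or for the run at 95.939 Mb.

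**Figure D4:**
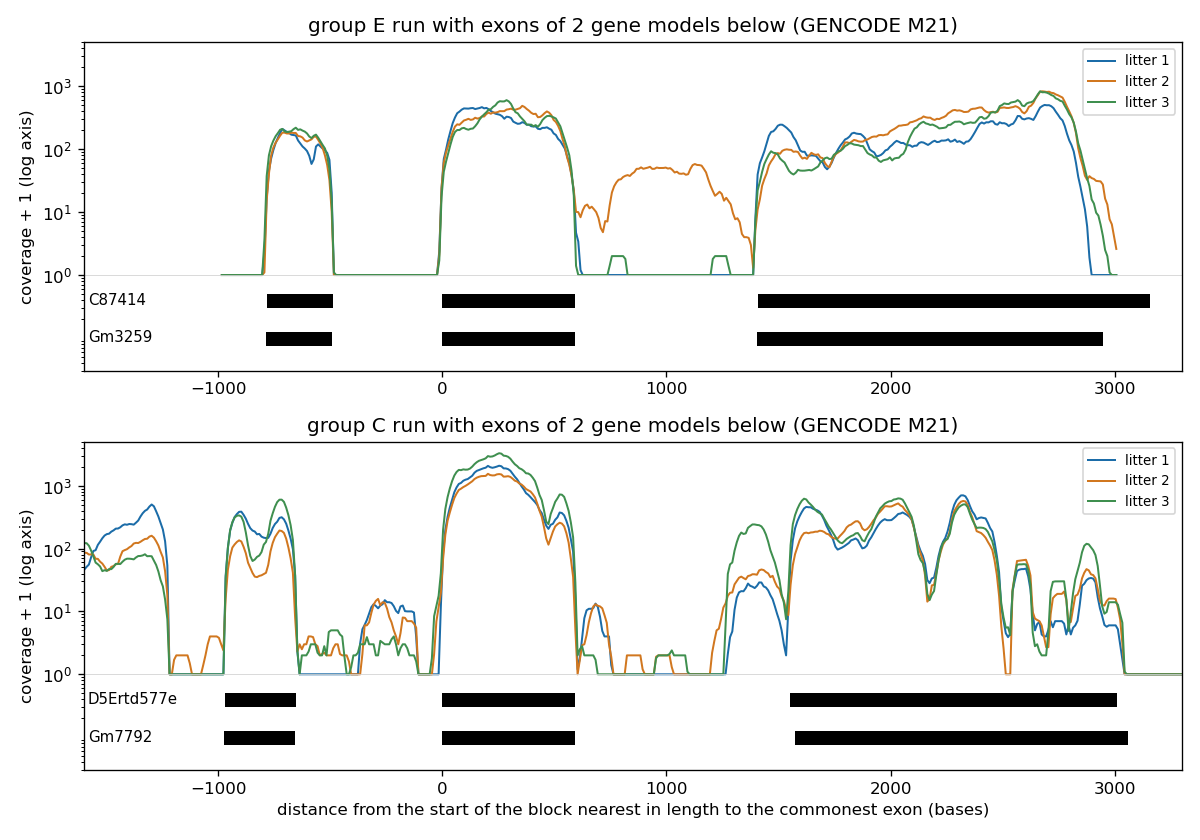
Coverage + 1 (log axis) in each litter along run E (upper) and the group C run chr5:95907001-95915000 (lower), by distance in bases from the start of the block nearest to 591 bases. Black bars are exons of 2 GENCODE M21 models each, placed so that their 591-base exon starts at 0. In run E the first 2 blocks lie over exons of like length of C87414 and Gm3259 and the third, of 1465 bases, ends before the third exons do, while in group C the first 2 exons of D5Ertd577e lie under blocks and coverage continues before and between the exons.

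The litters differed in how deeply they covered single blocks, given here as coverage not scaled to the litter's depth. Inside the run chr5:95611001-95624000, the block chr5:95617710-95618586 had a mean coverage of 65.6, 129 and 316 in litters 1, 2 and 3. The neighbouring block chr5:95618665-95619390, 78 bases further on, had 251, 126 and 67.7, the opposite order. Across the cluster, the coefficient of variation between litters, less counting variance, had a median of 53.9% over the 239 windows that averaged 100 alignments or more. It was 58.2% over 66 contig windows and 67.5% over 42567 windows of all nuclear chromosomes. No test was made of these medians. The 3 most variable cluster windows each began 2 kb before a group A run. Since those runs repeat one another, the windows may not be independent, and whether they count the same reads was not tested. The window at chr5:95292001-95293000 had 194, 925 and 0 alignments in litters 1, 2 and 3, that at chr5:95609001-95610000 had 212, 812 and 0, and that at chr5:94953001-94954000 had 110, 868 and 0. Litter 3 had no alignment in any of them, which at its depth allows up to 3 alignments, counting error only.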

How the data were processed

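RNA of 3 litters was amplified with SPIA (Nugen Ovation), sheared and made into Illumina libraries, per the labels' protocols. Reads were aligned to mm9 with Bowtie, per the submitters' processing notes; the sources used here give neither its version nor its settings, such as the treatment of reads fitting several places. The deposited files hold coverage, the number of alignments over each base, a signal that was not scaled. Each base's coverage was unfolded into starts of 72-base alignments, with no strand; 0 positions gave a negative count. Recovery was tested on simulated data (100% of 100000 positions; 2 of 2 planted copies found).

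RPKM, windows, blocks and equal counts were computed with Python 3.11.15, numpy 2.4.6, scipy 1.17.1 and matplotlib 3.10.9. A read that fits several places can appear at each of them, so levels of copies are not independent. Gene models came from GENCODE M21 and a RefSeq table (GRCm38.p6), with no coordinates converted. The regions and marker genes were chosen with earlier results of these data known. Named were the 10 cluster runs with the highest windows, the contig's 5 such runs, the 3 most variable windows among those averaging 100 alignments or more, and the longest stretches. The grouping of runs, the gene-model layout, the whole-run comparison and the other block, run and gene comparisons were chosen after seeing the data. Alternatives tried were start positions counted once, scaling by medians of ratios, other windows, thresholds, flanks and minimum counts, and leaving out each litter.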

Additional observations from a re-analysis of the deposited data

Results flagged for a closer look

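On the unplaced contig Un_random, outside the regions described, 69.4% of the 2668 compared starts (10 alignments or more in each litter) had the litter counts of the cluster or the contig; it was listed because it is signal outside the main measurement. Its 8 runs at or above 1 RPKM in all litters that share most starts with a group comprised 5 of group A, 1 of group C and 2 of group D. The group A runs there had 35.1 to 45.3, 46.9 to 55.8 and 48.8 to 65.2 RPKM in litters 1, 2 and 3.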

How the results depend on the processing

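No paired analysis was possible because the 3 litters form 1 group and no second group shares their numbers (ratios within a litter compare regions, not groups). Of the recomputed values, 45 were counted as unchanged and 25 moved. Outside the ratios, unchanged meant within the spread or within 1.5 times the count. Ratios were counted as unchanged even where they lay outside the spread. With other flanks, for example, the cluster's ratio was 3.18, 6.15 and 9.63, beside 4.79 ± 0.487. With start positions counted once, the contig's ratio to the cluster was 2.20, beside 2.59 ± 0.180. No ratio changed direction. With start positions counted once per litter, the contig density was 6.46 and the median coefficient of variation 26.0%; with windows averaging 10 alignments or more included, it was 97.0%. Windows of 500 bases and 2 kb gave 305 and 112 cluster windows and 98 and 30 contig windows. Covered blocks numbered 372 at a coverage of at least 10 and 404 when joined over gaps under 100 bases. At minimums of 20 and 50 alignments, 100% and 100% of contig starts were found in the cluster, and 98.6% and 100% of cluster starts recurred. At least 50 matched starts gave a stretch share of 19.2%. Leaving out 1 litter in turn gave 99.9% to 100% of contig starts found, 99.0% to 99.2% of cluster starts recurring, a stretch share of 30.7% to 47.6% and a median coefficient of variation of 36.4% (without litter 1) to 65.6% (without litter 3). Requiring 20 alignments or more left 2 groups of 12 runs, since fewer starts were compared, and 80% shared starts left 4 groups of 17 runs. Neither strand nor gene of origin can be read from these files.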
